A study of Mus musculus with 6 samples.

Results

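The proteasome genes were followed in inguinal subcutaneous white fat of mice with and without an inducible deletion of Tfg in adipocytes. Members were the protein-coding genes whose symbol on the array begins with Psma, Psmb, Psmc, Psmd, Psme, Psmf or Psmg followed by a number. The RefSeq table of GRCm38.p6 lists 51 such genes. A probe set with a single gene symbol measured 48 of them, out of 19229 protein-coding genes and 30702 named genes on the array. Psmb5, Psme2 and Psme2b share their probe sets with other symbols and were not analysed here. Of the 48 genes, 30 encode constitutive subunits of the proteasome and 3 encode the subunits of the immunoproteasome (Psmb8, Psmb9 and Psmb10). Another 13 encode tissue-restricted subunits, assembly chaperones, activators or an inhibitor. Psmc3ip and Psme3ip1 met the rule by symbol only: the first encodes a meiotic recombination factor and the second a protein that binds the activator Psme3.

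Both groups were male C57BL/6 mice aged 2 months, injected with tamoxifen for 5 days and sampled 2 weeks later. The WT group, 3 mice, was TFG f/f. The KO group, also 3 mice, was TFG f/f; Adipoq-ERT2Cre, in which the adiponectin promoter drives a tamoxifen-inducible Cre recombinase in fat cells. Both groups therefore carried floxed alleles and received tamoxifen, and they differed in the Cre. The tissue was whole fat, so cells that lack the Cre contributed to every array.

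The proteasome is the main protease of the cytosol and nucleus for proteins tagged with ubiquitin. Its 20S core is a barrel of alpha and beta rings with the proteolytic sites inside, and its 19S particle recognises ubiquitin chains, removes them and unfolds the substrate with a ring of ATPases. Interferon induces alternative beta subunits, which form the immunoproteasome and favour peptides for presentation on class I molecules. In fat, the transcription factor Nfe2l1 is known to maintain proteasome genes, in brown adipocytes above all.

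The arrays held 65956 probe sets, and the median log2 signal of an array was 6.96 to 7.02 in the WT and 6.47 to 6.76 in the KO group. KO 2 stood apart: it correlated with KO 1 and KO 3 at 0.960 and 0.965, against 0.986 between KO 1 and KO 3. The targeted gene, Tfg, showed no fall in the KO group, at 7.99, 8.21 and 8.03 against 7.97, 7.94 and 7.91 on WT arrays (exact 2-sided permutation p = 0.1, the smallest that 3 against 3 arrays allow). Which exons its probe set reads is not given, so the groups are named here by their labels, and every direction below rests on those labels. Of the markers of the labelled tissue, 7 of 9 measured adipocyte genes were called higher on KO arrays, where 10.7% of protein-coding genes were. The mean of the 9 adipocyte genes was 8.63 to 10.28 on WT and 11.85 to 13.27 on KO arrays. Markers of skeletal muscle (7 genes) averaged 6.93 to 7.04 on WT arrays, 9.15 on KO 1, 11.07 on KO 2 and 6.90 on KO 3. The mean of 13 housekeeping genes was 0.96 higher on KO arrays, while the middle probe set of the whole array changed by -0.37.

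Most constitutive proteasome genes read higher on the KO arrays, by unequal amounts. Over the 48 members, limma called 23 higher and 1 lower (adjusted p under 0.05), or 20 of the 30 constitutive subunits higher and 0 lower. Over all probe sets 5.32% were called higher and 15.6% lower, and over protein-coding genes 10.7% and 10.2%. Of the 13 housekeeping genes 7 were called higher and 0 lower. The median change was 0.72 on the log2 scale for the 48 members and 1.13 for the 30 subunits, against -0.18 for protein-coding genes and 1.11 for the housekeeping genes. The 3 KO values lay all above the 3 WT values in 36 of the 48 members and all below them in 3, where 23.3% and 41% of protein-coding genes and 11.1% and 44.9% of all probe sets did so. The remaining 9 members overlapped. Among the 13 housekeeping genes, 10 had all KO values above all WT values and 1 had all below. On the deposited scale the median of the 30 subunits lay near that of the housekeeping genes, and the median of all 48 members lay below it. A change in the number of cells of a type and a change in RNA per cell cannot be told apart in such bulk samples.

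**Figure D1:**
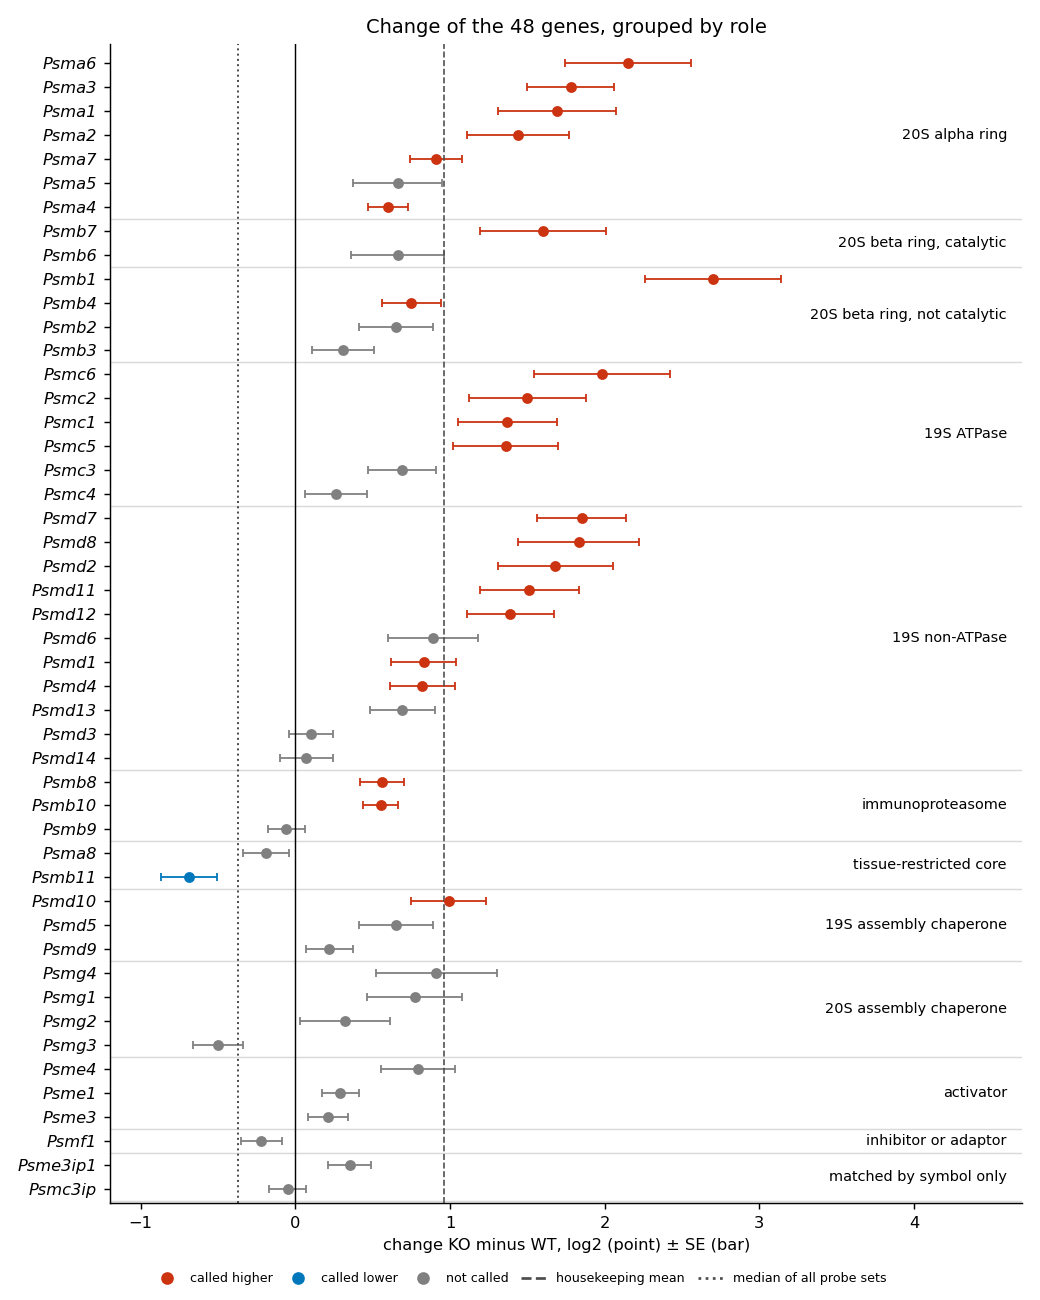
Change between KO and WT arrays (log2, point) with its standard error (bar) for each of the 48 genes, grouped by role; red points were called higher, the blue point lower, grey points were not called, the dashed line is the housekeeping mean of 0.96 and the dotted line the median probe set at -0.37. Subunits of the 20S core and the 19S particle spread from 0.07 to 2.70, while immunoproteasome, activator and assembly genes lie mostly below 1.

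The direction depended on how the arrays were scaled. After quantile normalization or centring each array on its median, 46 of 48 members had a positive change, and the median of all probe sets moved from -0.37 to -0.04. Those scalings called 6.11% and 7.8% of all probe sets higher and 3.35% and 4.94% lower, and of the members 19 and 26 higher and 0 lower. After centring on the housekeeping mean, which moved that median to -1.33, only 16 members had a positive change and 32 a negative one. In that scaling 1.6% of all probe sets were called higher and 88.4% lower, and of the members 8 were called higher and 12 lower. The same 8 genes were called higher under all 4 scalings. They were the alpha ring genes Psma1, Psma3 and Psma6, the beta ring gene Psmb1, the ATPase gene Psmc6, and Psmd2, Psmd7 and Psmd8 of the 19S particle. Their change relative to the housekeeping mean lay between 0.71 (Psmd2, adjusted p = 0.0447 by limma) and 1.74 (Psmb1, adjusted p = 0.00168).

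In the alpha ring, which gates the entry to the core, 6 of 7 genes rose, where 10.7% of protein-coding genes did. The median change of the ring was 1.44. Psma6 rose most. It read 8.74, 9.01 and 8.55 on WT arrays and 10.21, 11.82 and 10.71 on KO arrays, a change of 2.15 ± 0.41 (SE), or 4.43-fold (limma adjusted p = 0.036). Every KO value was more than the highest WT value, and KO 2 was the highest. Psma4 had the smallest change of the ring. It read 7.16, 7.23 and 7.36 against 7.78, 8.02 and 7.74, a rise of 0.60 ± 0.13 (SE; adjusted p = 0.0383), again without overlap. That rise turned to -0.37 relative to the housekeeping genes. Psma1, Psma2, Psma3 and Psma7 rose by 1.69, 1.44, 1.78 and 0.91. Psma5, at 0.66 ± 0.29 (SE), overlapped between the groups and did not pass (adjusted p = 0.121). Its pseudogene Psma5-ps was called higher by 0.76 (adjusted p = 0.0494), and probes of such near copies may share transcripts, so both values are uncertain.

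In the beta ring, which carries the proteolytic sites, 3 of 6 measured constitutive genes rose, where 10.7% of protein-coding genes did. Psmb1, a subunit without a proteolytic site, had the largest change of all 48 members. It read 8.66, 9.38 and 8.87 on WT arrays and 11.13, 12.65 and 11.24 on KO arrays, a change of 2.70 ± 0.44 (SE), or 6.51-fold (limma adjusted p = 0.0354). The gap between the lowest KO and the highest WT array was wider than the spread within the WT group. Psmb7, which carries the trypsin-like site, read 7.64, 8.23 and 7.59 against 9.02, 10.31 and 8.94 and rose by 1.60 ± 0.41 (SE; adjusted p = 0.045). Psmb6, which carries the caspase-like site, read 7.90, 7.85 and 8.09 against 8.29, 9.28 and 8.25. Its groups did not overlap, but KO 2 stood far above the other KO arrays, and the change of 0.66 ± 0.30 (SE) did not pass (adjusted p = 0.125). Psmb4 rose by 0.75, while Psmb2 was 0.65 higher without passing (adjusted p = 0.0866). Psmb3 was nearly level, at 7.68, 7.67 and 7.39 against 7.77, 8.27 and 7.63, and its groups overlapped (change 0.31 ± 0.20 (SE), adjusted p = 0.244).

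The ATPase ring of the 19S particle, which unfolds substrates, had 4 of 6 genes called higher, where 10.7% of protein-coding genes were. The median change of this ring was 1.37. Psmc6 went from 7.69, 7.81 and 7.52 to 9.07, 10.69 and 9.20, a rise of 1.98 ± 0.44 (SE; limma adjusted p = 0.0388) without overlap. Psmc1, Psmc2 and Psmc5 rose by 1.37, 1.50 and 1.36. Psmc3 was 0.69 higher without passing (adjusted p = 0.0652). Psmc4, at 7.77, 7.70 and 7.60 against 7.69, 8.36 and 7.79, overlapped (change 0.26 ± 0.20 (SE), adjusted p = 0.32), and only KO 2 read clearly above the WT arrays.

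Of the 11 non-ATPase genes of the 19S particle, 7 rose and 0 fell, where 10.7% and 10.2% of protein-coding genes did. Changes of the 11 genes ran from 0.07 to 1.85. Psmd7, a scaffold subunit, rose most, from 9.37, 9.25 and 9.10 to 10.63, 11.71 and 10.93, by 1.85 ± 0.29 (SE; limma adjusted p = 0.0354). Psmd14, the deubiquitinase that pairs with Psmd7, did not pass. It read 8.70, 8.28 and 8.32 on WT and 8.59, 8.62 and 8.30 on KO arrays, which overlapped fully (change 0.07 ± 0.17 (SE), adjusted p = 0.745). Psmd8, Psmd2, Psmd11 and Psmd12 rose by 1.83, 1.68, 1.51 and 1.39, and Psmd1 and the ubiquitin receptor gene Psmd4 by 0.83 and 0.82. Psmd6 and Psmd13 had changes of 0.89 and 0.69 that did not pass (adjusted p = 0.0668 and 0.0559). Psmd3, at 0.10, overlapped (adjusted p = 0.549). Across the 30 constitutive subunits the WT level and the change correlated at r = 0.47, a description over genes that share the same 6 arrays.

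**Figure D2:**
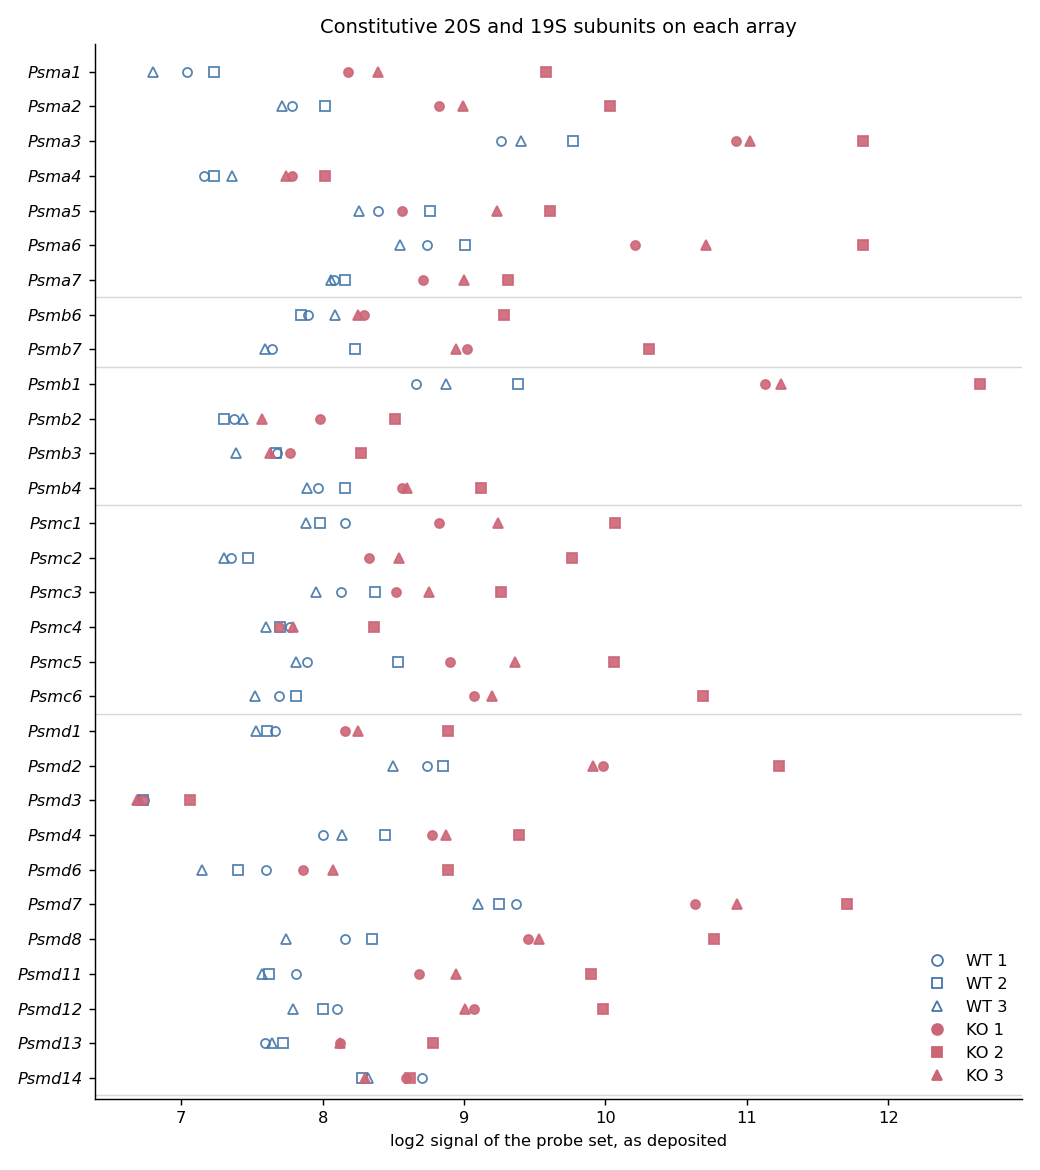
Log2 signal of the 30 constitutive subunits (x axis) on each of the 6 arrays, with open blue symbols for WT and filled red symbols for KO arrays, and a circle, square and triangle for replicates 1, 2 and 3. KO 2 gives the highest value in 29 of the 30 rows, and KO values lie all above WT values in 25.

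KO 2 gave the highest value of all 6 arrays in 29 of the 30 subunits, the exception being Psmd14, and it did so in 28.8% of protein-coding genes. The subunits lay a median of 0.71 above their WT mean on KO 1, 1.75 on KO 2 and 0.97 on KO 3. KO 2 also had the highest skeletal muscle, adipocyte, endothelial and housekeeping signals, and their part in the result was not tested. Of 6 endothelial markers 5 were called higher, where 10.7% of protein-coding genes were. The median change of the 6 markers was 1.88. The mean of these markers was 7.09 to 7.26 on WT arrays and 8.98, 9.47 and 8.80 on KO 1, KO 2 and KO 3. Of the 30 subunits 26, 29 and 27 were above the highest WT value on KO 1, KO 2 and KO 3, as were 28.7%, 32.9% and 29.5% of protein-coding genes. On KO 3 muscle markers stood at 6.90, no higher than on WT arrays. The adipocyte, endothelial and housekeeping means stood higher there than on WT arrays, at 11.85, 8.80 and 9.77. Without KO 2, 21 of the 48 members were called higher, and the median of the members fell from 0.72 to 0.50. limma then no longer called Psmb8, Psmc5, Psmd4, Psmd10 and Psmb11, and called Psmd13 and Psme4 higher. Among members that did not pass with all arrays, leaving out KO 2 moved Psmd6 from 0.89 to 0.58, Psmb6 from 0.66 to 0.32, Psmb2 from 0.65 to 0.41, Psma5 from 0.66 to 0.42 and Psmd5 from 0.65 to 0.40. Psmg4 moved from 0.91 to 0.45, Psmg1 from 0.77 to 0.42 and Psmg2 from 0.32 to 0.01. Psmb3, Psmc4, Psmd9 and Psmf1 moved to 0.12, 0.05, 0.08 and -0.12. limma called 0 members without WT 1, WT 2, WT 3 or KO 3. Unadjusted p was then under 0.05 in 27, 28, 27 and 32 members and in 36%, 38.1%, 32.7% and 43.5% of all probe sets, against 33 members and 47.9% with all arrays. KO 3 alone against the 3 WT arrays, a comparison chosen after the data were seen, gave 0 calls and a median change of 0.60. That fit takes its spread from the WT arrays only and assumes that the lone KO array varies like them; 30 members and 29.2% of all probe sets had an unadjusted p under 0.05.

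**Figure D3:**
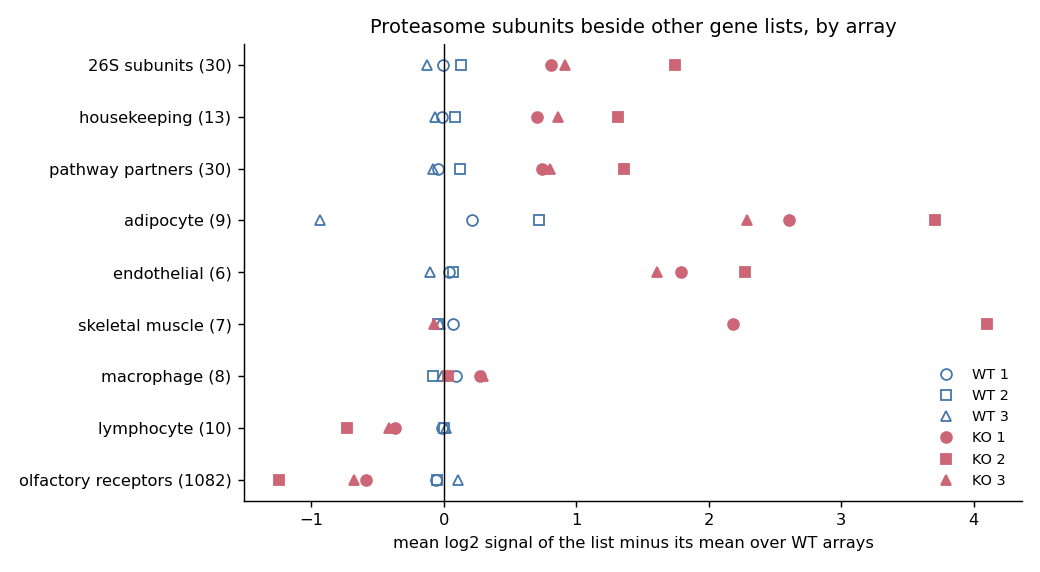
Mean log2 signal of each gene list on each array minus its mean over WT arrays (x axis), with the number of genes in brackets and symbols for arrays as in the legend. The 30 subunits and the 13 housekeeping genes are higher on all 3 KO arrays, and the subunits shift further on KO 2. Skeletal muscle markers are high on KO 1 and KO 2 only, and olfactory receptor genes and lymphocyte markers are lower on all 3 KO arrays.

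Of the 3 immunoproteasome genes, 2 rose, where 10.7% of protein-coding genes did. Psmb8 read 6.89, 6.87 and 6.81 on WT arrays and 7.20, 7.59 and 7.47 on KO arrays, without overlap. It rose by 0.56 ± 0.14 (SE), or 1.48-fold (limma adjusted p = 0.04215). Psmb10 read 7.14, 7.24 and 7.25 against 7.65, 7.80 and 7.82 and rose by 0.55 ± 0.11 (SE; adjusted p = 0.0365). Psmb9 did not pass, at 7.40, 7.26 and 7.46 against 7.36, 7.37 and 7.21 (change -0.06 ± 0.12 (SE), adjusted p = 0.684). The rises of Psmb8 and Psmb10 turned to -0.40 and -0.42 after centring on the housekeeping genes. Without KO 2 the call of Psmb8 was lost and that of Psmb10 was not. Immune cells also express these subunits. All 10 measured lymphocyte markers had a negative change, as did 64.1% of protein-coding genes and 78.8% of all probe sets. Of these markers 3 were called lower, where 10.2% of protein-coding genes and 15.6% of all probe sets were. The median change of the lymphocyte markers was -0.46, against -0.37 for all probe sets and -0.18 for protein-coding genes, whose lower quartile was -0.44. In 6 of the 10 markers every KO value lay below every WT value, as in 41% of protein-coding genes and 44.9% of all probe sets. The mean of the 10 markers was 6.97 or more on each WT array and 6.26 to 6.62 on KO arrays. Of 8 macrophage markers 1 rose and 1 fell, where 10.7% and 10.2% of protein-coding genes did. Lyz2 rose by 1.61 (limma adjusted p = 0.0354), and Itgam had a change of -0.44 (adjusted p = 0.049). The mean of the 8 macrophage markers was 7.51 to 7.68 on WT and 7.62 to 7.89 on KO arrays. The part of either cell type in the immunoproteasome values was not tested.

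Differences within an array do not depend on how arrays are centred. Psmb9 takes the place of Psmb6 in the immunoproteasome, and Psmb10 that of Psmb7. Psmb9 minus Psmb6 was -0.50, -0.59 and -0.63 on WT arrays and -0.93, -1.91 and -1.04 on KO arrays. The difference between groups was -0.72, and the ranges did not overlap. Psmb10 minus Psmb7 was -0.50, -0.99 and -0.34 against -1.37, -2.51 and -1.12, a difference of -1.06, again without overlap. In both pairs the immunoproteasome gene thus stood lower against its constitutive counterpart on every KO array than on any WT array. Psmb9 itself changed by -0.06 and Psmb6 by 0.66, while Psmb10 changed by 0.55 and Psmb7 by 1.60. The WT means of Psmb9 and Psmb10, 7.37 and 7.21, lay below the median of olfactory receptor genes, 7.47. Without detection calls these differences are therefore uncertain and do not show a loss of immunoproteasome transcripts. The exact 2-sided permutation p was 0.1 for each, the smallest that 3 against 3 allow, and 0.15 after Benjamini-Hochberg adjustment over the 3 pairs compared. Without KO 2 the differences were -0.41 and -0.63. Psme1 minus Psme3, which compares the interferon-inducible activator with its nuclear relative, overlapped at 0.06, -0.04 and -0.02 against 0.40, 0.00 and -0.16 (exact permutation p = 0.8).

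Partner subunits of the 19S particle also changed unequally. Psmc1 pairs with Psmc2, Psmc3 with Psmc6 and Psmc4 with Psmc5 during assembly of the ATPase ring. Psmc2 minus Psmc1 was -0.81, -0.51 and -0.58 on WT and -0.49, -0.31 and -0.70 on KO arrays, with overlap. Psmc6 minus Psmc3 went from -0.44, -0.56 and -0.43 to 0.55, 1.43 and 0.45. Psmc5 minus Psmc4 went from 0.12, 0.83 and 0.21 to 1.21, 1.70 and 1.57. Both of these pairs were higher on every KO array than on any WT array. Psmd7 minus Psmd14 went from 0.67, 0.97 and 0.78 to 2.04, 3.09 and 2.63, the widest shift of the 4 pairs, at 1.78. These 4 pairs were chosen after their values had been seen and were not tested.

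**Figure D4:**
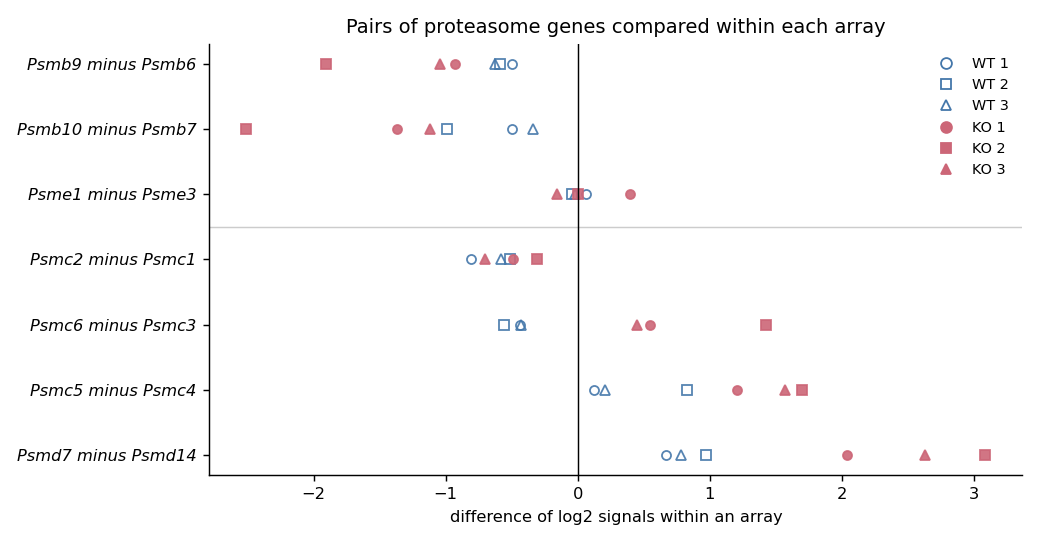
Difference of log2 signals between the members of a pair within each array (x axis), with open blue symbols for WT and filled red symbols for KO arrays; the 3 pairs above the grey line were planned and the 4 below it were chosen after their values were seen. KO arrays lie left of WT arrays for Psmb9 minus Psmb6 and Psmb10 minus Psmb7, and right of them for Psmc6 minus Psmc3, Psmc5 minus Psmc4 and Psmd7 minus Psmd14.

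Core subunits restricted to other tissues read low. Psma8, the alpha subunit of testis, read 6.37, 6.28 and 6.15 against 5.91, 6.01 and 6.31, with overlap (change -0.19 ± 0.15 (SE), limma adjusted p = 0.319). Psmb11, the beta subunit of thymus cortex, was the 1 member called lower. It read 6.36, 6.47 and 6.59 against 5.70, 5.55 and 6.11, a change of -0.69 ± 0.18 (SE; adjusted p = 0.0451). As a measure of signal from genes that fat does not use, 1082 olfactory receptor genes had a median change of -0.82. The median was -0.18 for protein-coding genes and -0.37 for all probe sets. Of the 1082 receptor genes 356 were called lower, where 10.2% of protein-coding genes and 15.6% of all probe sets were. The call of Psmb11 was not made after quantile normalization or median centring, nor without any 1 of the 6 arrays. On WT arrays the same receptor genes had a median of 7.47 and a 90th percentile of 9.29. The WT mean of 47 of the 48 members was at or below that percentile, and 21 were below the median. Without detection calls the folds of these members are uncertain.

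Assembly chaperones and regulators mostly did not pass. Psmd10, a chaperone of the 19S base also known as gankyrin, rose. It read 6.24, 6.37 and 6.85 against 7.08, 7.75 and 7.61, a change of 0.99 ± 0.24 (SE; limma adjusted p = 0.0428). Psmd9 was 0.22 higher, at 6.76, 6.76 and 6.69 against 6.82, 7.23 and 6.82, and Psmd5 had a change of 0.65, neither passing (adjusted p = 0.261 and 0.0838). Of the 4 chaperones of the 20S core 0 were called, with 2 at an unadjusted p under 0.05, where 47.9% of all probe sets were. Psmg4 read 6.34, 6.53 and 6.49 against 6.82, 8.28 and 6.99, with KO 2 far above the other KO arrays and a change of 0.91 ± 0.39 (SE; adjusted p = 0.113). Psmg3 went the other way, at 6.48, 6.18 and 6.14 against 5.58, 5.77 and 5.94, all KO values below all WT values (change -0.50 ± 0.16 (SE), adjusted p = 0.0595). So did 41% of protein-coding genes, and the median probe set changed by -0.37. Quantile normalization and median centring gave Psmg3 -0.14 and -0.17 (limma adjusted p = 0.615 and 0.543). Housekeeping centring, which called 88.4% of all probe sets lower, gave it -1.47 (limma adjusted p = 0.00177). Psmg1 and Psmg2 were 0.77 and 0.32 higher (adjusted p = 0.0986 and 0.39).

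The activators bind the ends of the core in place of the 19S particle. Psme4, also known as PA200, read 7.38, 7.38 and 7.29 against 7.95, 8.66 and 7.80, without overlap, but the change of 0.79 ± 0.24 (SE) did not pass (limma adjusted p = 0.0571). Psme1 read 8.17, 8.06 and 8.01 against 8.53, 8.28 and 8.31, and Psme3 8.11, 8.10 and 8.03 against 8.13, 8.28 and 8.47. Both had KO values above all WT values by narrow margins, with changes of 0.29 and 0.21 (adjusted p = 0.108 and 0.213). Psmf1, which inhibits the core in vitro, was lower on every KO array, at 6.43, 6.29 and 6.23 against 6.20, 5.91 and 6.19, without passing (change -0.22 ± 0.13 (SE), adjusted p = 0.223). All KO values lay below all WT values in 41% of protein-coding genes too. Of the genes matched by symbol only, Psme3ip1 read 7.03, 7.05 and 6.92 against 7.18, 7.56 and 7.32 (change 0.35, adjusted p = 0.0921). Psmc3ip read 6.71, 6.72 and 6.79 against 6.68, 6.56 and 6.83 (change -0.05, adjusted p = 0.74).

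The transcription factor gene Nfe2l1, whose product binds antioxidant response elements of proteasome genes when proteolysis is impaired, rose with the subunits. It read 8.76, 8.98 and 8.55 on WT arrays and 10.43, 11.42 and 10.55 on KO arrays, a change of 2.04 ± 0.29 (SE), or 4.10-fold (limma adjusted p = 0.0354). Every KO value was above 10 and every WT value below 9. Its relative Nfe2l2 was 0.37 higher without passing (adjusted p = 0.1415). Ngly1, the glycanase that activates the Nfe2l1 product, was 0.53 higher without passing (adjusted p = 0.0662), and Stat3 rose by 0.58 (adjusted p = 0.045). The call of Stat3 was lost without KO 1 and with a trend in the variance model. Of 8 measured control genes 2 rose and 0 fell, where 10.7% and 10.2% of protein-coding genes did, and their median change was 0.32.

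Promoters were searched to show which members carry the letters that Nfe2l1-type and interferon-induced factors are known to bind. RefSeq windows of GRCm38.p6, which run from upstream of a gene's start to shortly after it, matched 40 of the 48 members. Psma8, Psmb1, Psmb2, Psmb7, Psmc3, Psmd3, Psmd7 and Psmg2 did not match. The antioxidant response core TGACNNNGC, on either strand, was present in 5 of the 40 members (12.5%) and in 14% of 27025 genes. The members were Psmb6, Psmc6, Psmd12, Psmd9 and Psme4. The stretches upstream of the start that hold it whole are shown here 5′ to 3′ on the strand of the gene, with the core in capitals.
Psmb6, chr11:70525323-70525356, plus strand: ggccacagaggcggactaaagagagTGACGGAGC
Psmc6, chr14:45329574-45329630, plus strand: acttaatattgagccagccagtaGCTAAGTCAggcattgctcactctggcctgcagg
Psmd12, chr11:107479278-107479314, plus strand: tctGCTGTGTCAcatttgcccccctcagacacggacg
Psmd9, chr5:123228134-123228189, plus strand: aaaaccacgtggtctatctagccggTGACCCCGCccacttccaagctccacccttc
The core ended at the base before the start in Psmb6 and lay in the reverse orientation in Psmc6 and Psmd12. The changes of these 4 genes were 0.66, 1.98, 1.39 and 0.22. Members with the core had a median change of 0.79 and members without it 0.75. The CCAAT box was present in 16 of 40 members and in 41.1% of all genes, and the median change was 0.86 with it and 0.72 without.

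The core of the interferon-stimulated element, GAAA, any 2 bases and GAAA again, on either strand, was present in 5 of the 40 members (12.5%) and in 3.99% of all genes. The members were Psmb3, Psmd4, Psmd9, Psme1 and Psmg4, and in the last 2 it lay after the start. The other 3 are shown with the core in capitals. Psmd9 holds both cores, which do not overlap.
Psmb3, chr11:97703246-97703305, plus strand: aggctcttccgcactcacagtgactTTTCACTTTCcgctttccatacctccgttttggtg
Psmd4, chr3:95042660-95042719, minus strand: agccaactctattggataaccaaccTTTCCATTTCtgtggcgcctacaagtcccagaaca
Psmd9, chr5:123228006-123228065, plus strand: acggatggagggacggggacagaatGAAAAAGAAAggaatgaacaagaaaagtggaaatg
None of the 3 immunoproteasome genes held these letters in its window. Members with the core had a median change of 0.31 and members without it 0.77. Psmb9 is transcribed away from the peptide transporter gene Tap1, and 225 bases lie between their RefSeq starts. They are shown on the strand of Psmb9, with its CCAAT box, which reads ATTGG there, in capitals.
Psmb9 to Tap1, chr17:34187331-34187555, minus strand: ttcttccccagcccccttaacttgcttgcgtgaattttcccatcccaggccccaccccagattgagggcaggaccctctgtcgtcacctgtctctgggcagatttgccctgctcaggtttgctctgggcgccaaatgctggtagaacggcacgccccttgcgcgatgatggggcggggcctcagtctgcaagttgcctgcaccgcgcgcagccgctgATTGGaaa
Both genes of this pair overlapped between the groups. Tap1 read 7.71, 7.76 and 7.77 against 7.77, 8.08 and 7.75 (change 0.12 ± 0.13 (SE), limma adjusted p = 0.4695), beside the -0.06 of Psmb9.

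Factors that work with the proteasome also read higher on KO arrays. Of 30 measured partner genes (of 38 listed) 17 rose and 0 fell, where 10.7% and 10.2% of protein-coding genes did. Their median change of 0.88 lay below the 1.11 of the housekeeping genes. Relative to the housekeeping mean 6 were called higher and 8 lower, beside 1.6% and 88.4% of all probe sets. Among factors that bind or assemble the particle, 7 of 9 rose. Txnl1, a thioredoxin bound to the 19S particle, rose most. It read 7.49, 8.50 and 7.83 against 10.70, 12.74 and 11.08, a change of 3.57 ± 0.57 (SE), or 11.85-fold (limma adjusted p = 0.0354). Its WT mean of 7.94, like the 8.76 of Nfe2l1, lay below the 90th percentile of the olfactory receptor genes (9.29), so both folds are uncertain. Pomp, the chaperone that matures the core, read 7.50, 8.11 and 7.29 against 9.22, 9.93 and 9.22 and rose by 1.82. Its difference from the Psmg chaperones was not tested. The deubiquitinase gene Uchl5 rose by 1.44 and the scaffold gene Ecpas by 1.39.

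Of 10 genes of substrate delivery 5 rose and 0 fell, where 10.7% and 10.2% of protein-coding genes did. Vcp, the ATPase that extracts ubiquitinated proteins, rose by 1.83 (limma adjusted p = 0.0379), and its cofactor genes Nploc4 and Ufd1 rose by 1.32 and 0.90. The shuttle gene Rad23b rose by 1.41. All 3 measured genes of ubiquitin conjugation rose: Ube2k by 1.85, Ube2d3 by 1.31 and Ube2n by 0.97. Ube2n read 7.11, 7.21 and 6.77 against 8.04, 7.98 and 7.97, with KO arrays closely alike and none of them overlapping the WT arrays.

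**Figure D5:**
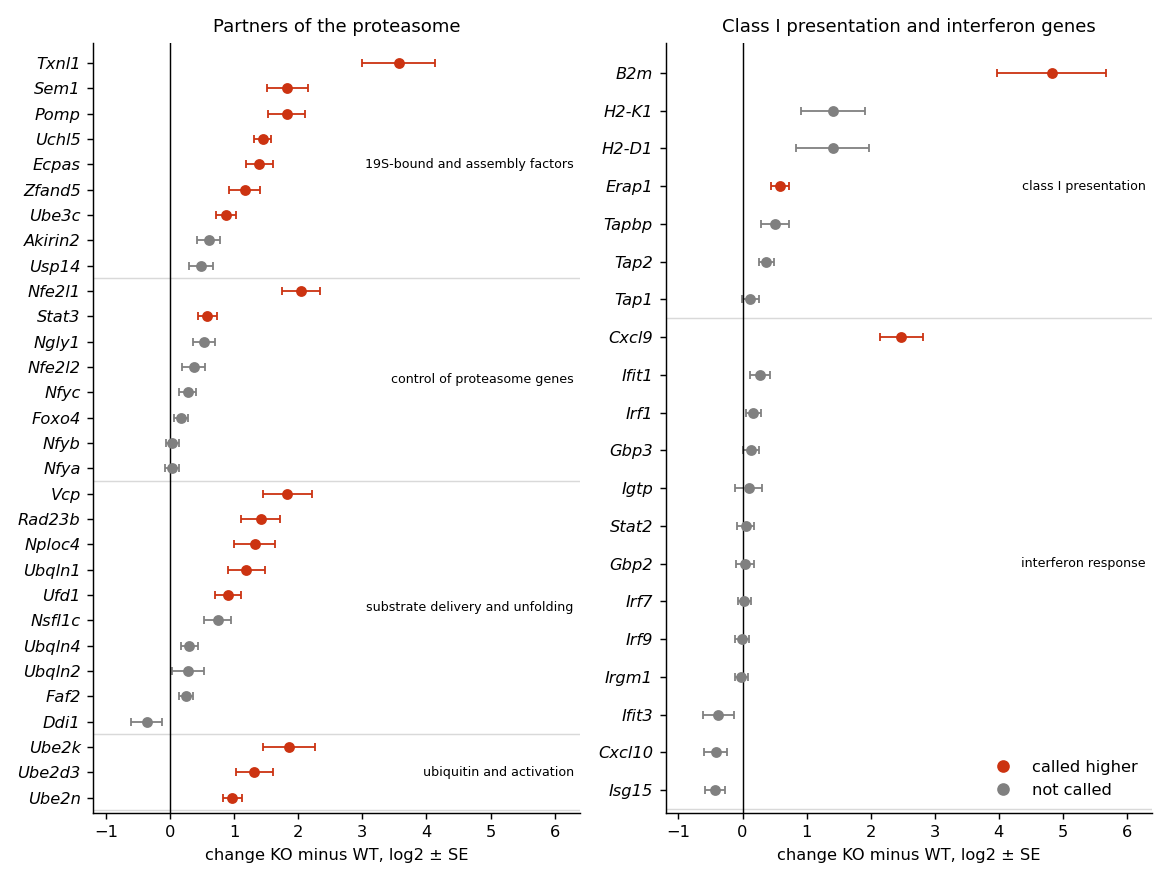
Change between KO and WT arrays (log2, point) with its standard error (bar) for partner genes of the proteasome (left) and for class I presentation and interferon response genes (right); red points were called higher and grey points were not called. Most partners lie right of 0. Of the 13 interferon response genes 12 were not called, where 10.7% of protein-coding genes were called higher and 10.2% lower.

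Genes of class I presentation and of the interferon response, which share regulators with the immunoproteasome, mostly did not pass. Of 7 class I genes 2 rose and 0 fell, where 10.7% and 10.2% of protein-coding genes did. B2m rose by 4.83 ± 0.85 (SE) and the peptidase gene Erap1 by 0.58 ± 0.14 (SE, limma adjusted p = 0.0417). The median change of the 7 genes was 0.58. All 7 changes were positive, while 64.1% of protein-coding genes had a negative one. In 6 of the 7 every KO value lay above every WT value, as in 23.3% of protein-coding genes. Tap2 was 0.37 higher (adjusted p = 0.0617) and H2-K1 1.42 higher (adjusted p = 0.0773), neither passing. Without KO 2 the value of H2-K1 was 0.84, and on KO 3 alone 0.58. Of 13 interferon response genes 1 rose and 0 fell, beside the same 10.7% and 10.2% of protein-coding genes. Their median change was 0.04, and 11 of them overlapped between the groups. Their median WT mean of 6.83 lay below the 7.47 of olfactory receptor genes, so missing calls do not show that the response was absent. The gene that rose was the chemokine gene Cxcl9, at 6.58, 6.96 and 6.41 against 9.34, 9.64 and 8.41 (change 2.48 ± 0.34 (SE), limma adjusted p = 0.0354). Cxcl10, Isg15 and Ifit1 had changes of -0.42, -0.43 and 0.27 without passing (adjusted p = 0.118, 0.085 and 0.207).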

How the data were processed

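The authors deposited log2 signals per probe set for 6 arrays, made with Transcriptome Analysis Console per the submitters' processing notes. How they were normalized, any detection calls and the build were not found in the labels or file headers. Symbols came from GEO's annotation of the array, updated through RefSeq (GRCm38.p6): 31258 probe sets had 1 symbol, 1492 several and 33206 none. Each gene was represented by its probe set with the highest mean.

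KO and WT arrays were compared with limma 3.58.1 (R 4.3.3), using lmFit and eBayes without trend over all 65956 probe sets, Benjamini-Hochberg adjustment and a threshold of 0.05. The procedure was tested on simulated arrays. Pairs of genes were compared by exact permutation in scipy 1.17.1. Of 5 planned pairs 2 needed Psmb5 or Psme2 and were not run. Values on every array are given for the immunoproteasome, tissue-restricted, catalytic and activator genes and for the largest and smallest change of each other role, and up to 4 genes of the smallest p are named per partner list. Tap1 was added for its start beside Psmb9. Members and lists were chosen with earlier results of these data known. Replicate numbers were not used to pair the arrays in the main fit. Same-numbered deviations correlated at 0.00, 0.20 and 0.14 and differently numbered ones at -0.22 to 0.17, which cannot show whether the arrays were paired. The number of arrays limits the precision.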

Additional observations from a re-analysis of the deposited data

How the results depend on the processing

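The medians, counts and changes of the members were recomputed under each alternative. Trend, trend with robust, averaging the probe sets of a gene and the 0.1 threshold kept the count of members called higher within 1.5 times of 23. Requiring a change of at least 1 left 15 members higher, 0 lower and 0 immunoproteasome genes, and 6215 probe sets. At an adjusted p under 0.1, 2 members were called lower, and 30676 probe sets were called. With array weights 22409 probe sets were called. Median centring and quantile normalization called 0 members lower, and 8405 and 6244 probe sets, with 61.2% and 64.6% of calls higher against 25.4% as deposited; the median of the members was 1.05 after median centring. Leaving out dim probe sets also gave 0 members lower, because it removed Psmb11 itself, 1 of the members below its limit. With the replicate block 18 members were called higher, the calls of Psma4, Psmb8, Psmb10, Psmc1 and Psmd1 being lost, so that 0 immunoproteasome genes were called; Stat3 and Erap1 lost theirs too. A trend in the variance model lost the calls of Psmb4, Psmd4, Stat3 and Erap1, and trend with robust those of Stat3 and Erap1. Housekeeping centring called 59350 probe sets (1.8% higher), 8 members higher and 12 lower, 0 immunoproteasome genes, and 6 partner genes higher and 8 lower, and turned the members' median to -0.24. Leaving out 1 array at a time gave 0 to 24 members higher, 0 lower, 0 to 2 immunoproteasome genes, 0 to 18 partner genes, 0 to 14166 probe sets, a members' median of 0.50 to 0.87, and -0.08 to 0.20 for Psme1 minus Psme3. KO 3 alone gave 0 calls in each count.

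These changes turned sign. Under housekeeping centring: Psma4 -0.37, Psma5 -0.30, Psma7 -0.06, Psmb2 -0.31, Psmb3 -0.65, Psmb4 -0.21, Psmb6 -0.30, Psmb8 -0.40, Psmb10 -0.42, Psmc3 -0.27, Psmc4 -0.71, Psmd1 -0.13, Psmd3 -0.86, Psmd4 -0.15, Psmd5 -0.32, Psmd6 -0.07, Psmd9 -0.74, Psmd13 -0.27, Psmd14 -0.89, Psme1 -0.67, Psme3 -0.75, Psme4 -0.18, Psmg1 -0.19, Psmg2 -0.64, Psmg4 -0.05, Psme3ip1 -0.61, Tfg -0.83, Ufd1 -0.07, Erap1 -0.38, Stat3 -0.39, Ngly1 -0.43, Nfe2l2 -0.59, Tap2 -0.59 and Ifit1 -0.70. Under median centring and quantile normalization: Psma8 0.14 and 0.18, Psmb9 0.27 and 0.20, Psmf1 0.11 and 0.15, and Psmc3ip 0.28 and 0.29. With array weights: Psmd3 -0.002, Psmd14 -0.05 and Psmc3ip 0.04. On KO 3 alone: Psmd3 -0.03, Psmd14 -0.13, Psma8 0.04 and Psmc3ip 0.09. Leaving out 1 array at a time gave -0.01 (without KO 2) to 0.17 for Psmd3, -0.12 to 0.02 (without KO 2) for Psmc3ip and -0.01 (without WT 2) to 0.20 for Psmd14. The cause was not tested. The 2 pairs with Psmb5 or Psme2 were not recomputed, since neither gene was measured singly.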
